A study of Mus musculus with 12 samples.

Results

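The effect of Plekhg5 loss on the spinal cord transcriptome was examined over both SOD1 backgrounds at once. All 12 libraries entered, with 6 Plekhg5-/- libraries compared with 6 Plekhg5+/+ libraries in a model that also held a term for the SOD1-G93A transgene. RNA came from whole spinal cord of mice aged 7 months. The mice were kept on a C57BL/6 background. The 4 genotypes, with 3 mice each, were Plekhg5+/+, Plekhg5-/-, Plekhg5+/+ SOD1-G93A and Plekhg5-/- SOD1-G93A, so that the 6 libraries on each side of the comparison comprised 3 without and 3 with the transgene. SOD1-G93A is a human SOD1 gene with a mutation of familial amyotrophic lateral sclerosis, here in the low copy line with slow disease. The labels give Plekhg5-/- as the genotype of the animal and name no cell type, and how the allele was made is not given in the sources used here. Whole tissue was sequenced, so fewer cells of a type and less RNA per cell cannot be told apart.

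Plekhg5 is a guanine exchange factor that activates the small GTPase Rab26 and directs synaptic vesicles to autophagy in motoneurons. Autophagosomes fuse with lysosomes to degrade their cargo, or can release it from the cell in a secretory form of autophagy. The comparison asks which transcripts shift with Plekhg5 loss whether or not the mice carry SOD1-G93A, in this pathway and beyond it.

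The libraries held 30415643 to 38743628 counts, with a median of 32714352. The tissue identity was checked on markers, and all libraries expressed Mbp of myelin (10700 to 15700 CPM, the counts scaled to library size), Snap25 of neurons (2400 to 3040 CPM) and Chat of motoneurons (19.6 to 32.6 CPM). Transcripts from the Y chromosome were present in 5 of the 6 Plekhg5+/+ and 3 of the 6 Plekhg5-/- libraries. Summed over the 20 general microglia and macrophage genes, the Plekhg5+/+ SOD1-G93A libraries had 1304 to 2564 CPM. The libraries of the other 3 genotypes had 639.6 to 1071 CPM, so the whole genotype lay above them. Within it the first library was the highest, for example with 238 CPM of C1qb against 106 and 118 CPM in the others. The lists that the first Plekhg5+/+ SOD1-G93A library moved are described with and without it.

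Plekhg5 itself had 19.4, 24.5 and 25.0 CPM in the Plekhg5+/+ libraries and 3.28, 3.98 and 4.70 CPM in the Plekhg5-/- libraries. With the transgene it had 21.5, 24.9 and 20.9 CPM in Plekhg5+/+ SOD1-G93A and 4.72, 3.92 and 4.14 CPM in Plekhg5-/- SOD1-G93A mice. All 6 Plekhg5-/- libraries lay below all 6 Plekhg5+/+ libraries, and the transcript remained at 18.2% of its Plekhg5+/+ level (log2 fold change -2.46 ± 0.0992 SE, adjusted p = 2.49e-08). The counts cover all exons of the gene (GRCm38, chr4:152072433-152115404, plus strand), so the exons that gave the remaining reads could not be distinguished. An exact two-sided permutation of the Plekhg5 labels within each background gave p = 0.005, the smallest that the 400 arrangements allow.

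Mouse Sod1, the superoxide dismutase that handles cytosolic superoxide, had 144 to 183 CPM in the Plekhg5+/+ and 147 to 186 CPM in the Plekhg5-/- libraries. The groups overlapped, with a log2 difference of 0.0043 (exact permutation p = 0.955). Rab26 had 4.95 to 6.67 CPM with and 4.58 to 6.72 CPM without Plekhg5, with a log2 fold change of -0.03 and a 95% confidence interval of -0.20 to 0.14. The human SOD1 transcript had 4421, 4919 and 5639 CPM in Plekhg5+/+ SOD1-G93A and 5002, 4904 and 5098 CPM in Plekhg5-/- SOD1-G93A mice. These groups overlapped as well (log2 difference 0.0093, exact permutation p = 0.9, for which 3 against 3 libraries allow no value below 0.1).

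Only 9 of 20155 genes tested passed an adjusted p of 0.05 (edgeR's quasi-likelihood test with Benjamini-Hochberg adjustment), which is 0.0447% of the genes. Of these, 5 were higher (0.0248%) and 4 lower (0.0198%) in Plekhg5-/- spinal cord. Lower were Plekhg5, Tnfrsf25, Slc2a5 and Eno1, and higher were Gm30120, Gm8483, LOC115489042, Eno1b and Gm5855. In each of the 9 genes the 6 Plekhg5-/- libraries did not overlap the 6 Plekhg5+/+ libraries, which was the case for 35 genes in all (0.174%), 20 of them higher (0.0992%) and 15 lower (0.0744%). The 5 called genes on chromosome 4 lay within 2 Mb of Plekhg5. The other 4 called genes lay on chromosomes 3, 14, 18 and 19. Those on chromosomes 3, 14 and 18 were in sequence copies of Eno1, which lies within 2 Mb of Plekhg5. The gene on chromosome 19 contains a stretch of 309 bases that is 94.5% identical to Vamp3, also within 2 Mb of Plekhg5. The same 9 genes were called after omission of any single library.

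**Figure D1:**
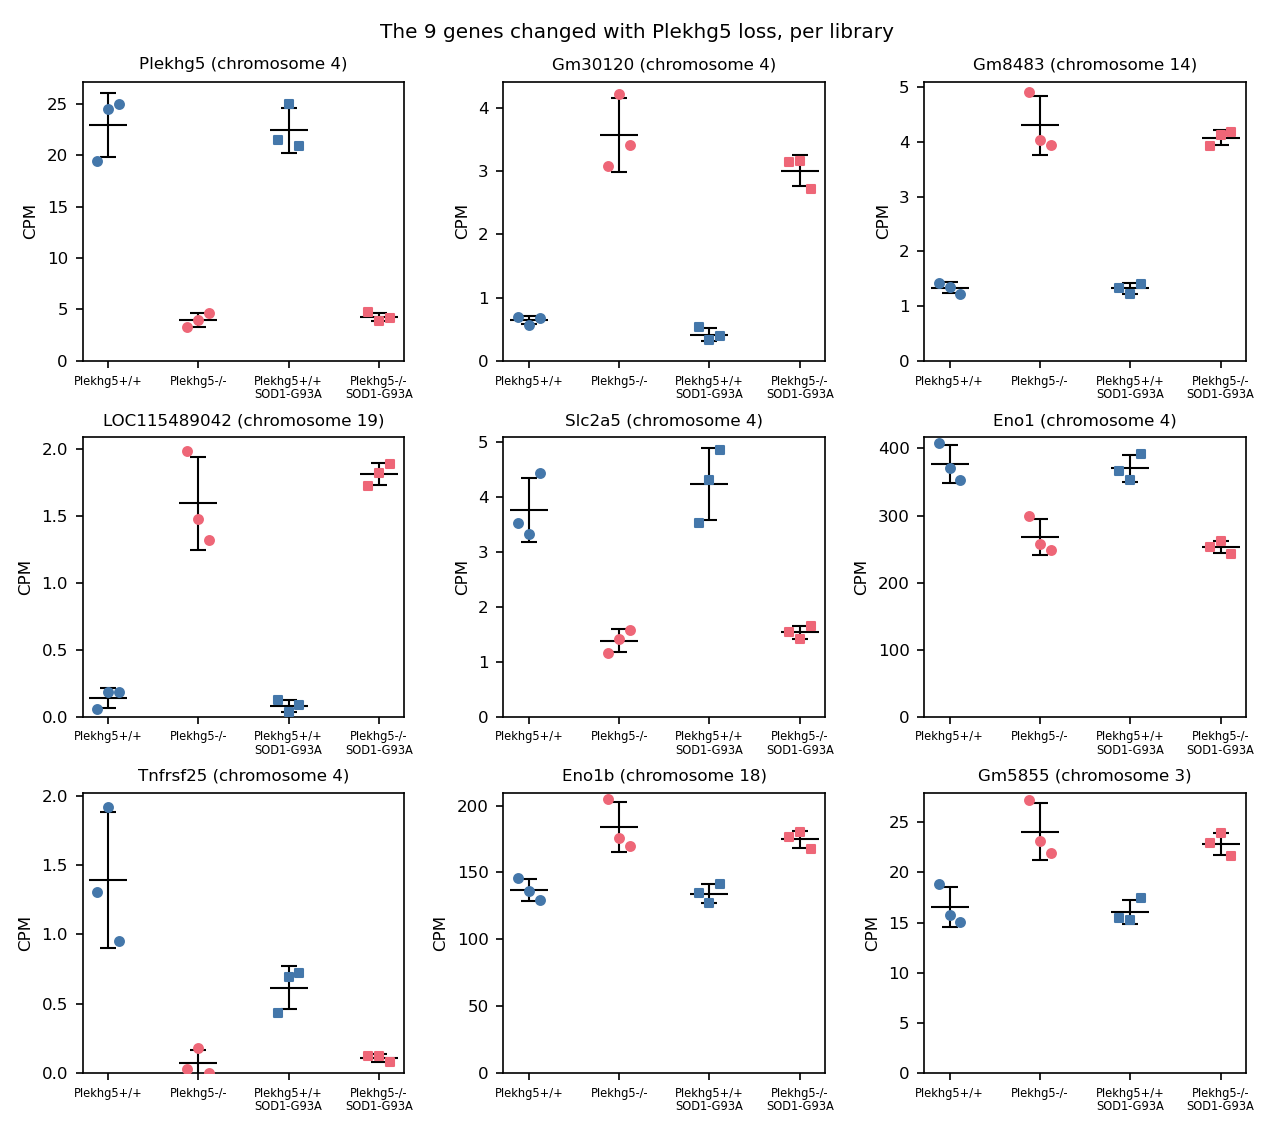
CPM (vertical axes, linear from 0) of the 9 called genes in each of the 12 libraries, with the mean as a horizontal line and the SD as error bars over the 3 mice of a genotype; blue points are Plekhg5+/+, red points Plekhg5-/-, and squares carry SOD1-G93A. In each panel all 6 Plekhg5-/- libraries lie on one side of all 6 Plekhg5+/+ libraries, for example at 1.17 to 1.66 CPM below 3.34 to 4.86 CPM for Slc2a5.

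Closest to Plekhg5 was Tnfrsf25, a death receptor of the TNF receptor family that binds TL1A. It starts 0.000124 Mb beyond the annotated end of Plekhg5 on the same strand (chr4:152115528-152120119). It had 1.30, 1.92 and 0.949 CPM in Plekhg5+/+ and 0.0293, 0.181 and 0.00 CPM in Plekhg5-/- libraries. With the transgene it had 0.435, 0.693 and 0.720 CPM against 0.123, 0.121 and 0.0777 CPM. Tnfrsf25 fell to 9.59% of its Plekhg5+/+ level (log2 fold change -3.38, 95% confidence interval -4.31 to -2.45, adjusted p = 0.00657). Its counts are few, and it was not tested when at least 10 counts in every library were required.

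Slc2a5 encodes GLUT5, a fructose transporter that microglia express in the central nervous system, and lies 1.93 Mb from Plekhg5 (chr4:150119344-150144168). It had 3.54, 3.34 and 4.44 CPM in Plekhg5+/+ and 1.17, 1.42 and 1.58 CPM in Plekhg5-/- libraries. In SOD1-G93A mice it had 3.54, 4.32 and 4.86 CPM with Plekhg5 and 1.54, 1.43 and 1.66 CPM without. The transcript fell to 36.6% on average (log2 fold change -1.45 ± 0.119 SE, adjusted p = 4.65e-05), by -1.44 on the log2 scale without and by -1.46 with the transgene. The 18 homeostatic microglia genes tested, to which it belongs, had a median log2 fold change of 0.14 without and -0.44 with SOD1-G93A, against 0.0054 and -0.0097 over all genes. The median with SOD1-G93A was -0.284 when the first Plekhg5+/+ SOD1-G93A library was left out. Slc2a5 was the 1 called gene of this list.

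Gm30120, a long noncoding RNA gene 1.09 Mb from Plekhg5 (chr4:150965587-150980888, minus strand), changed in the opposite direction. It had 0.696, 0.567 and 0.674 CPM in Plekhg5+/+ and 3.07, 4.22 and 3.41 CPM in Plekhg5-/- libraries. In SOD1-G93A mice it rose from 0.528, 0.330 and 0.390 CPM to 3.15, 3.16 and 2.72 CPM. The difference was 6.20-fold over both backgrounds (log2 fold change 2.63 ± 0.144 SE, adjusted p = 6.96e-07).

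Eno1, the glycolytic enzyme alpha-enolase that converts 2-phosphoglycerate to phosphoenolpyruvate, lies 1.82 Mb from Plekhg5 (chr4:150236692-150248873). It had 408, 371 and 352 CPM in Plekhg5+/+ and 299, 258 and 249 CPM in Plekhg5-/- libraries. In SOD1-G93A mice it had 367, 353 and 392 CPM with and 253, 262 and 243 CPM without Plekhg5. Eno1 fell by 0.52 on the log2 scale (SE 0.0552, adjusted p = 8.70e-04). It was the 1 called gene of 22 glycolysis genes tested, whose median log2 fold change was -0.02. The next members by p-value were Slc16a3, a lactate exporter, with a log2 fold change of -0.61 (unadjusted p = 0.00915), and Hk2, a hexokinase, with -0.34 (unadjusted p = 0.0357), both with an adjusted p of 0.994. In none of the 12 libraries was the count of Eno1 a whole number. Such fractions arise where reads with several matches in the genome, or reads that overlap several genes, are divided.

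Copies of Eno1 made from its spliced transcript lie on other chromosomes, and 3 of them were among the 9 called genes. Over the aligned transcript, Eno1b was 99.5% identical to Eno1 over 1736 bases, Gm5855 was 96.3% identical over 1306 bases and Gm8483 was 94.3% identical over 1302 bases. The sequenced reads were 75 bases long. Of the 1953 windows of that length in the Eno1 transcript, 1254 were found without a mismatch in Eno1b, 72 in Gm5855 and 6 in Gm8483.

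Where Eno1 was lower, these copies were higher. Eno1b had 146, 136 and 130 CPM in Plekhg5+/+, 205, 176 and 170 CPM in Plekhg5-/-, 134, 127 and 141 CPM in Plekhg5+/+ SOD1-G93A and 176, 180 and 168 CPM in Plekhg5-/- SOD1-G93A libraries (log2 fold change 0.40 ± 0.0529 SE, adjusted p = 0.00811). Gm5855 had 18.8, 15.7 and 15.1 CPM, 27.2, 23.1 and 21.9 CPM, 15.5, 15.2 and 17.5 CPM, and 22.97, 23.9 and 21.7 CPM in the same order (0.52 ± 0.0714 SE, adjusted p = 0.0105). Gm8483 had 1.42, 1.35 and 1.23 CPM, 4.92, 4.04 and 3.94 CPM, 1.34, 1.22 and 1.41 CPM, and 3.92, 4.13 and 4.17 CPM (1.65 ± 0.0945 SE, adjusted p = 8.05e-07). None of these genes had a whole count in any of the 12 libraries. A further copy, Gm4735 on chromosome 2, 99.6% identical to Eno1, had 131 to 150 CPM in the Plekhg5+/+ and 139 to 169 CPM in the Plekhg5-/- libraries, and did not pass the test (log2 fold change 0.10, adjusted p = 0.994).

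The division of the counts among these genes was therefore examined, a measure chosen after the values were seen. Of the counts of Eno1 and its 6 copies together, Eno1 held 56.0% ± 0.233 in Plekhg5+/+ and 42.2% ± 0.178 in Plekhg5-/- libraries (mean ± SD over 6 libraries each). The ranges were 55.7 to 56.3% and 41.9 to 42.3%, without overlap, and the difference was -13.8 percentage points. The shares sum to 100%, so they are not separate observations, and no test is given. The share of Eno1b was 20.3% ± 0.171 against 29.0% ± 0.0847, that of Gm4735 20.9% ± 0.146 against 24.1% ± 0.176, that of Gm5855 2.44% ± 0.0926 against 3.798% ± 0.048, and that of Gm8483 0.199% ± 0.00519 against 0.676% ± 0.0277. The shares of these 4 copies were higher without Plekhg5.

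Summed into 1 gene before the fit, a step also chosen after the values were seen, Eno1 and its copies had 725, 664 and 632 CPM in Plekhg5+/+, 706, 609 and 587 CPM in Plekhg5-/-, 657, 628 and 699 CPM in Plekhg5+/+ SOD1-G93A and 605, 622 and 577 CPM in Plekhg5-/- SOD1-G93A mice. The groups overlapped. The log2 fold change of the sum was -0.11 ± 0.0541 SE (adjusted p = 0.994), compared with -0.52 for Eno1 alone. The direction called for Eno1 as counted is thus not a called difference in the total over Eno1 and its copies. From counts per gene, a different division of the reads and a change in the transcripts of Eno1 and its copies cannot be told apart. Neither was tested.

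**Figure D2:**
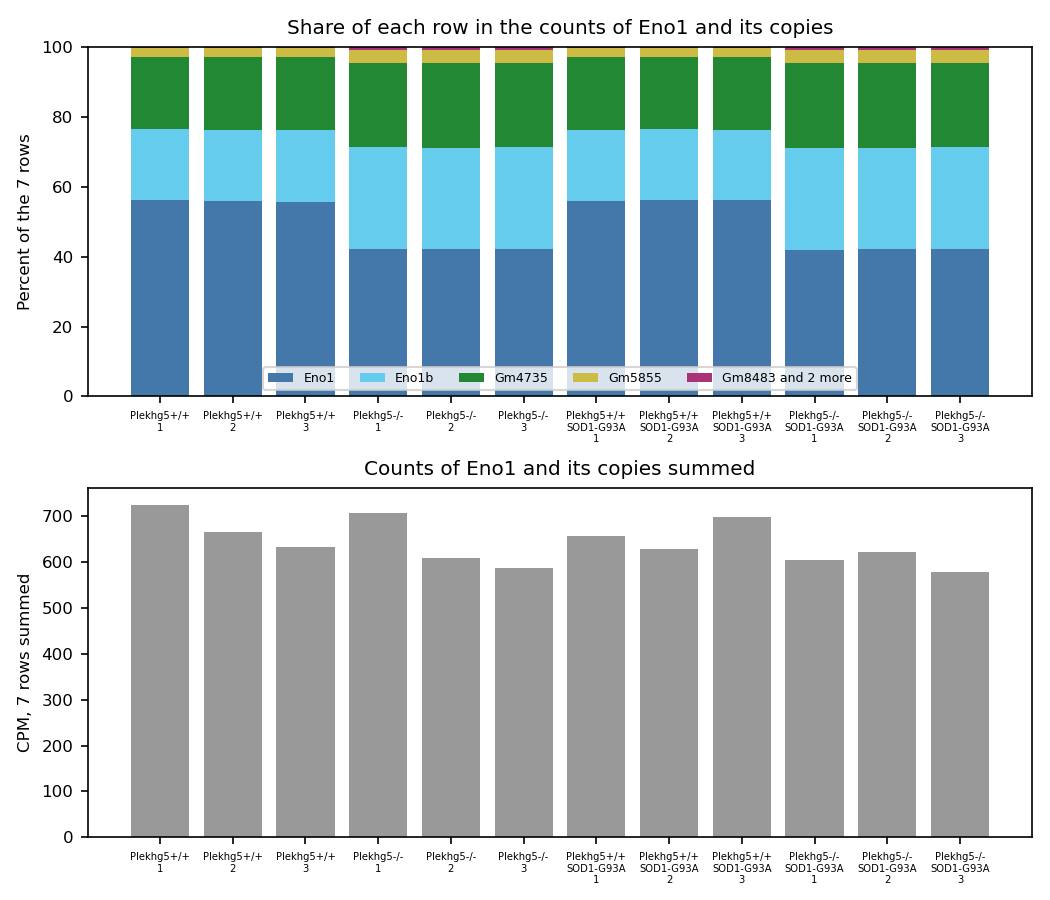
Upper panel, percent of the counts of Eno1 and its 6 copies assigned to each of them in each of the 12 libraries. Lower panel, their summed CPM. Eno1 takes 55.7 to 56.3% in the 6 Plekhg5+/+ and 41.9 to 42.3% in the 6 Plekhg5-/- libraries, while the summed counts of the groups overlap.

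The remaining called gene, LOC115489042 on chromosome 19 (chr19:10173765-10180504, minus strand), is annotated as a pseudogene and had the largest log2 fold change of the 9. It had 0.0580, 0.189 and 0.184 CPM in Plekhg5+/+ and 1.99, 1.48 and 1.33 CPM in Plekhg5-/- libraries. In SOD1-G93A mice it had 0.124, 0.0330 and 0.0900 CPM with and 1.73, 1.82 and 1.89 CPM without Plekhg5. It was 14.6-fold higher over both backgrounds (log2 fold change 3.87 ± 0.263 SE, adjusted p = 5.38e-06), with few counts in the Plekhg5+/+ libraries. It contains the processed pseudogene AC135670.1, which was 94.5% identical over 309 bases to Vamp3, a vesicle SNARE of endosomal recycling and secretion whose gene lies 1.01 Mb from Plekhg5. No window of 75 bases of the Vamp3 transcript was found without a mismatch in this copy. The counts cover all exons of LOC115489042, so reads from this stretch could not be distinguished from reads of the rest of the gene. The most alike window of the coding exons (chr4:151050926-151051000 and chr19:10175932-10176006) differed at 1 base, and the least alike window (chr4:151056166-151056240 and chr19:10176085-10176159) at 5 bases, all on the minus strand. The sequences are those of GENCODE M21 transcripts on GRCm38, shown to let the difference between the copy and Vamp3 be seen, and capitals mark the bases that differ from Vamp3.
Vamp3, window with fewest mismatches: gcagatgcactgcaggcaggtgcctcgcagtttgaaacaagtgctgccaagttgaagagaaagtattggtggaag
AC135670.1, window with fewest mismatches: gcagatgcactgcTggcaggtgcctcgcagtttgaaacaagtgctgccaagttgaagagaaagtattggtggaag
Vamp3, window with most mismatches: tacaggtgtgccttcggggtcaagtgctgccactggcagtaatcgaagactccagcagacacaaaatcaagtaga
AC135670.1, window with most mismatches: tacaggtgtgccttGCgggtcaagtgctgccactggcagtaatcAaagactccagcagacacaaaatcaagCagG

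Vamp3 had 59.2, 50.1 and 49.7 CPM in Plekhg5+/+, 55.9, 43.1 and 42.8 CPM in Plekhg5-/-, 59.6, 54.0 and 62.2 CPM in Plekhg5+/+ SOD1-G93A and 42.9, 45.6 and 45.9 CPM in Plekhg5-/- SOD1-G93A libraries. The first Plekhg5-/- library overlapped the Plekhg5+/+ libraries, and Vamp3 did not pass the test (log2 fold change -0.28, 95% confidence interval -0.44 to -0.11, adjusted p = 0.994). With LOC115489042 added to it, the log2 fold change was -0.23 ± 0.0777 SE (adjusted p = 0.994). With the Eno1 copies and these 2 genes summed, 4 genes were called, namely Plekhg5, Gm30120, Slc2a5 and Tnfrsf25. Each lies within 2 Mb of the Plekhg5 locus. The sums took in all called genes off chromosome 4, so the absence of those genes follows by construction and is no separate result.

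A search of all transcripts of coding genes within 10 Mb of Plekhg5 found 28 copies with at least 90% identity over 200 bases at other positions, among them Gm13087, which is itself within 10 Mb. Of these copies, 9 had a tested gene. Called were 4 of these 9, the 3 Eno1 copies and the gene that contains the Vamp3 copy. The other 5 had log2 fold changes from -0.35 for Gm9457, a copy of the ribosomal protein gene Rpl22, to 0.12 for Gm13886, a copy of Tardbp, each with an adjusted p of 0.994. Both of these parent genes had log2 fold changes near 0, of -0.06 for Rpl22 and 0.01 for Tardbp.

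Differences in the neighbourhood of Plekhg5 extended beyond the called genes. Of the 224 genes tested within 10 Mb, 5 were called and 40 had an unadjusted p under 0.05, which is 17.9%, compared with 3.67% of all genes. Of these 40 genes, 14 were higher and 26 lower in Plekhg5-/- mice. By distance, 33.3% of 24 genes within 1 Mb, 27.3% of 22 genes from 1 to 2 Mb, 17.4% of 132 genes from 2 to 5 Mb and 6.52% of 46 genes from 5 to 10 Mb had an unadjusted p under 0.05. On the other chromosomes this was 3.46% of 18890 genes. Genes this close are inherited with the mutated allele, so the loss of Plekhg5 and other differences carried on the same stretch of chromosome 4 cannot be told apart.

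**Figure D3:**
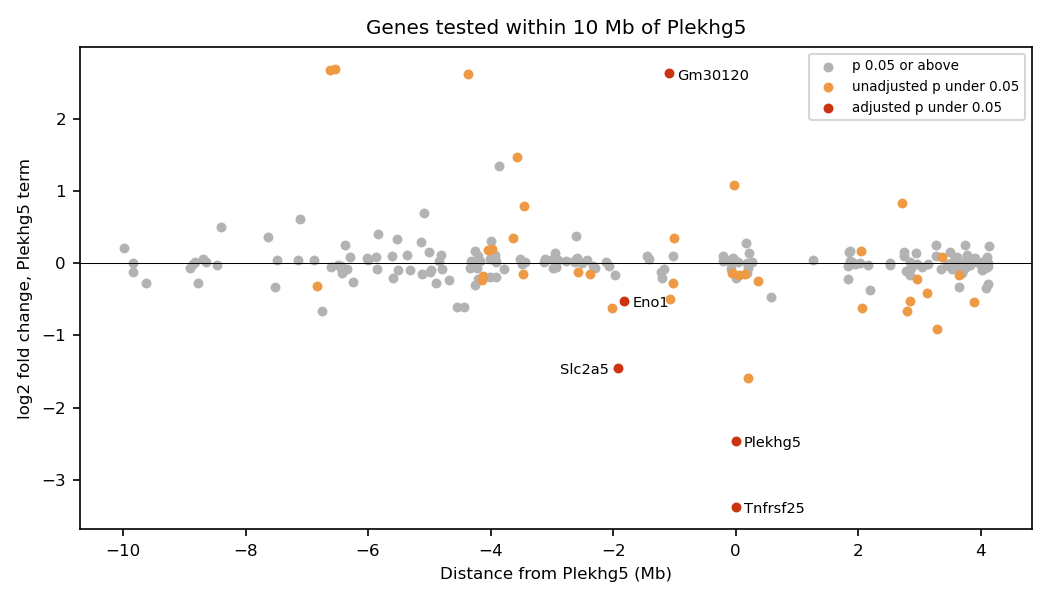
Log2 fold change of the Plekhg5 term (vertical axis) for the 224 genes tested within 10 Mb, against their distance from Plekhg5 in Mb (horizontal axis). Each point is a gene; the 5 called genes, in red, lie between -1.93 and 0 Mb, and the genes with an unadjusted p under 0.05, in orange, lie on both sides of the locus and of 0.

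The neighbours that came closest to the threshold were Ttc34, Faap20 and Angptl7. Ttc34, a gene for a protein with tetratricopeptide repeats 2.72 Mb away, had 1.44 to 1.72 CPM in the Plekhg5+/+ and 1.90 to 3.83 CPM in the Plekhg5-/- libraries, without overlap (log2 fold change 0.83, adjusted p = 0.0849). Faap20, a subunit of the Fanconi anaemia core complex 3.13 Mb away, had 18.8 to 23.1 CPM and 14.7 to 18.3 CPM, also without overlap (-0.41, adjusted p = 0.0853). Its difference was -0.24 on the log2 scale without and -0.58 with SOD1-G93A, and the interaction had an unadjusted p of 0.00919 that did not pass adjustment. Angptl7, a secreted angiopoietin-like protein 3.57 Mb away, was at or under 1.79 CPM in all libraries (log2 fold change 1.48, adjusted p = 0.167) and its groups overlapped. Ttc34, Faap20 and Angptl7 were called with DESeq2, and with edgeR when no filter on low counts was used.

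The Plekhg5 term averages over 2 backgrounds, so the effect was also estimated on each of them in a fit of the 4 genotypes. Without SOD1-G93A 6 genes were called (0.0298%) and with SOD1-G93A 7 genes (0.0347%), against 36 and 72 with DESeq2. Without the third Plekhg5+/+ library 59 genes were called without SOD1-G93A. The log2 fold changes of the 9 genes had the same sign on both backgrounds and similar sizes, for example -0.49 and -0.55 for Eno1, 1.69 and 1.62 for Gm8483 and 3.46 and 4.38 for LOC115489042. For Tnfrsf25 they were -4.23 and -2.50, and this interaction did not pass adjustment. The interaction of Plekhg5 and SOD1-G93A passed adjustment in 0 genes with edgeR, with 1824 genes at an unadjusted p under 0.05 (9.05%), and in 98 genes with DESeq2.

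Over all 20155 genes, the effects on the 2 backgrounds had the same sign in 8430 genes (41.8%). The called genes were chosen for their average over both backgrounds, which by itself favours equal signs, so their signs are a description. Of the 699 genes that lie elsewhere than within 10 Mb of Plekhg5 and had an unadjusted p under 0.05 for the Plekhg5 term, 97.7% had equal signs. Across genes, which are not independent replicates, their Pearson correlation was -0.0685, from estimates that share no library. An unadjusted p under 0.05 on both backgrounds was found with the same sign in 37 genes (0.184%) and with opposite sign in 119 genes (0.59%). The 3 Plekhg5-/- libraries lay on the same side of the 3 Plekhg5+/+ libraries on both backgrounds in 80 genes (0.397%), 48 of them higher (0.238%) and 32 lower (0.159%).

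**Figure D4:**
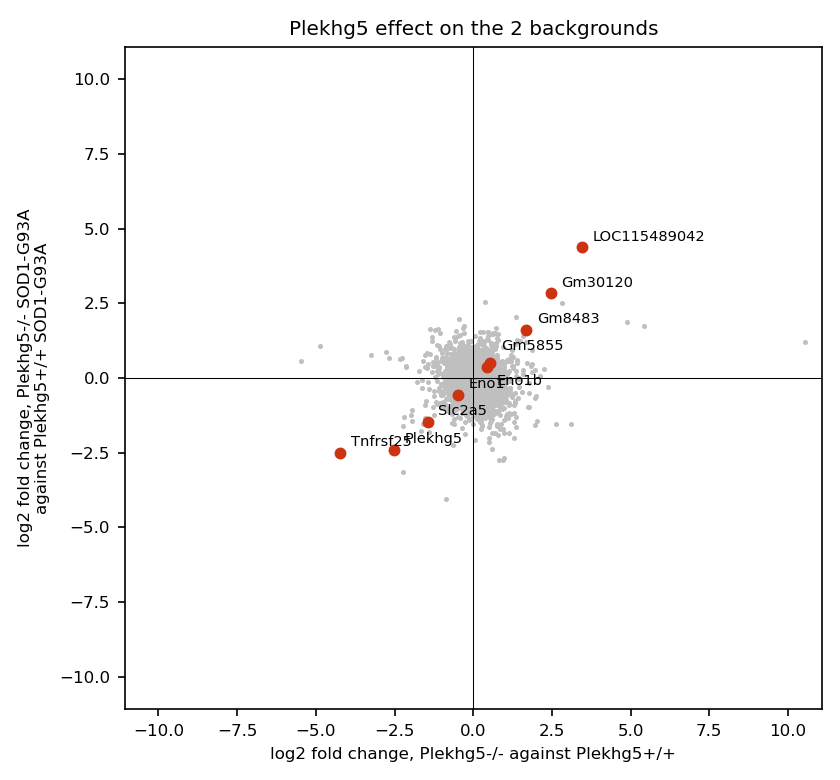
Log2 fold change of each of the 20155 genes for Plekhg5-/- against Plekhg5+/+ mice without SOD1-G93A (horizontal axis) and with SOD1-G93A (vertical axis). Grey points are all genes and red points the 9 called genes. The called genes, which were chosen for their average over both backgrounds, lie in the quadrants of equal sign.

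Among genes that were not called, 15 with no overlap of the 6 Plekhg5-/- and 6 Plekhg5+/+ libraries and the smallest p-values were looked up. Of these, 5 lie on chromosome 4, namely Ttc34, Faap20, 9430083M05Rik, 2510039O18Rik and Plekhm2. Of all 20155 genes tested, 18890 do not lie on chromosome 4, nor do 24 of the 35 genes without overlap. Plekhm2, an adaptor that links lysosomes through Arl8 to kinesin and moves them toward the cell periphery, lies 10.41 Mb from Plekhg5. It had 181, 184 and 194 CPM in Plekhg5+/+, 160, 156 and 156 CPM in Plekhg5-/-, 171, 191 and 169 CPM in Plekhg5+/+ SOD1-G93A and 163, 147 and 151 CPM in Plekhg5-/- SOD1-G93A libraries. The difference of -0.23 on the log2 scale (95% confidence interval -0.32 to -0.13) did not pass adjustment with edgeR (adjusted p = 0.249). Plekhm2 was called with DESeq2 and with limma voom.

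Off chromosome 4, Rd3, a regulator of guanylate cyclase known from photoreceptors, had 0.495 to 0.986 CPM with and 0.278 to 0.468 CPM without Plekhg5 (log2 fold change -0.95, adjusted p = 0.284). Dnaic2, a dynein subunit of motile cilia, had 5.68 to 7.24 CPM and 4.82 to 5.59 CPM (-0.33, adjusted p = 0.602). Bhlhe41, a repressor of the circadian clock, had 81.6 to 93.5 CPM and 72 to 81.2 CPM (-0.18, adjusted p = 0.994). Cacng3, which assists AMPA receptor trafficking, had 14.98 to 15.9 CPM and 16.5 to 18.7 CPM (0.18, adjusted p = 0.994). The other 6 genes of this group, Gm30938, Ier5l, Arl4a, Fam163a, Mcmbp and Ccdc14, had log2 fold changes between -0.30 and 0.74 and adjusted p-values from 0.914 to 0.994. None of these differences passed the test, and the groups were separated by narrow margins, of 81.2 against 81.6 CPM for Bhlhe41.

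The pathway of Plekhg5 was examined next. Of the 10 genes of the Plekhg5 axis with Rab26, none was called besides Plekhg5. Syt1, the calcium sensor of synaptic vesicles, had a log2 fold change of 0.12 (unadjusted p = 0.0345) and Atg16l1, which Rab26 recruits to vesicles, of -0.06 (unadjusted p = 0.132). Of 40 genes of the core autophagy machinery, 0 were called and 2 had an unadjusted p under 0.05, compared with 3.67% of all genes. Both were lower, namely Atg4d, an LC3 protease (-0.13), and Snap29, a SNARE of autophagosome fusion (-0.13). The median of the list was 0.0059, with 21 genes above and 19 below 0. Of 50 lysosomal genes, 0 were called and 0 had an unadjusted p under 0.05 for the Plekhg5 term. The smallest p-value was that of Hexa, with a log2 fold change of -0.21, and 39 genes were below 0 with a median of -0.07. Of the lysosomal genes, 29 were below 0 when the first Plekhg5+/+ SOD1-G93A library was left out, with a median of -0.0225. The 24 genes of lysosomal exocytosis and secretory SNAREs had a median of 0.0072. Of them 1 gene, Snap29, had an unadjusted p under 0.05, compared with 3.67% of all genes. For the autophagy genes the medians on the backgrounds were 0.01 without and 0.01 with SOD1-G93A. For the lysosomal genes they were 0.05 and -0.13, and 15 genes had the same sign on both. With SOD1-G93A 20 lysosomal genes were lower and 1 higher at an unadjusted p under 0.05, compared with 8.64% of all genes in either direction. Without it 3 were higher and 0 lower, compared with 5.32%. The lysosomal median with SOD1-G93A was -0.0798 when the first Plekhg5+/+ SOD1-G93A library was left out.

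Among lists of proteostasis, 34 proteasome subunits had a median of -0.03 and 31 genes of the unfolded protein response one of -0.07, and neither had a gene with an unadjusted p under 0.05 for the Plekhg5 term. For the unfolded protein response the median was -0.13 without and 0.11 with SOD1-G93A. Without the transgene 14 of these genes were lower at an unadjusted p under 0.05, compared with 5.32% of all genes in either direction. With it 2 were higher, compared with 8.64% of all genes in either direction. The 24 cytosolic heat shock genes had a median of -0.11, which arose from -0.31 without and 0.11 with SOD1-G93A. It was -0.0326 without the first and -0.142 without the third Plekhg5+/+ library. In this list 18 genes were lower at an unadjusted p under 0.05 without the transgene, compared with 5.32% of all genes in either direction, and 2 higher and 2 lower with it, compared with 8.64% of all genes.

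A few lists were below 0 on both backgrounds. The 11 haemoglobin and red cell genes had a median log2 fold change of -0.69, with 9 below 0 and 5 at an unadjusted p under 0.05, all lower, compared with 1.85% of all genes that were lower at this p. Hbb-bs, a beta globin, had 230, 395 and 272 CPM in Plekhg5+/+ and 216, 179 and 190 CPM in Plekhg5-/- libraries, and 365, 305 and 644 CPM against 290, 209 and 182 CPM in SOD1-G93A mice. The groups were separate on each background but overlapped between backgrounds, and the difference of -0.78 did not pass adjustment (unadjusted p = 0.00236, adjusted p = 0.994). Alas2, the first enzyme of haem synthesis in red cells, had a log2 fold change of -0.72 (unadjusted p = 0.00635). Such transcripts come from blood in the tissue. Without the first Plekhg5+/+ SOD1-G93A library their median was -0.354, with 5 genes still lower at an unadjusted p under 0.05.

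The 30 immediate early genes, which neurons and glia induce within minutes of stimulation, had a median of -0.23, with 26 below 0. Of these, 10 were lower at an unadjusted p under 0.05 (compared with 1.85% of all genes) and 0 were higher, but none was called. They were Junb, Ier2, Arc, Egr1, Gadd45b, Atf3, Ier3, Egr4, Egr3 and Dusp6. Junb, a subunit of the AP-1 transcription factor, had 16.8, 14.5 and 12.0 CPM in Plekhg5+/+, 12.5, 11.3 and 13.9 CPM in Plekhg5-/-, 24.5, 15.9 and 17.7 CPM in Plekhg5+/+ SOD1-G93A and 12.5, 11.8 and 12.4 CPM in Plekhg5-/- SOD1-G93A libraries (log2 fold change -0.44, unadjusted p = 0.00376, adjusted p = 0.994). Its groups overlapped without SOD1-G93A and were separate with it. Egr1, a zinc finger factor of the same response, had 24.9 to 47.1 CPM in the Plekhg5-/- and 32.4 to 68.7 CPM in the Plekhg5+/+ libraries without the transgene. The list median was -0.26 without and -0.12 with SOD1-G93A, and 5 genes were lower at an unadjusted p under 0.05 when the first Plekhg5+/+ SOD1-G93A library was left out.

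The 23 ependymal and motile cilia genes had a median of -0.15, with 20 below 0 (-0.08 without and -0.19 with SOD1-G93A). Cfap65 (-0.22) and Dnah5 (-0.23), a dynein motor of cilia, had an unadjusted p under 0.05, and none was called. These 2 of 23 genes compare with 1.85% of all genes that were lower at this p. Without the first Plekhg5+/+ SOD1-G93A library, 0 genes of the list had such a p.

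For the immune lists, the average over both backgrounds described neither of them. The 20 general microglia and macrophage genes had a median of -0.35 and all 20 were below 0, but the median was 0.22 without and -0.85 with SOD1-G93A, and 1 gene had the same sign on both. Cyba, a subunit of the phagocyte NADPH oxidase, had 5.19 to 5.51 CPM in Plekhg5+/+ and 4.61 to 5.81 CPM in Plekhg5-/- libraries, and 10.3 to 18.9 CPM against 6.86 to 8.57 CPM in SOD1-G93A mice (log2 fold change of the Plekhg5 term -0.45, unadjusted p = 0.022). Without the first Plekhg5+/+ SOD1-G93A library the list median of the Plekhg5 term was -0.0719, and that with SOD1-G93A was -0.468. Disease-associated microglia genes (26 genes, 0.14 without and -0.89 with), interferon-stimulated genes (31 genes, 0.16 and -0.70) and cell proliferation genes (25 genes, 0.09 and -0.35) also had medians of opposite sign. Without the first Plekhg5+/+ SOD1-G93A library their medians with SOD1-G93A were -0.301, -0.051 and 0.00548, so that the proliferation genes no longer had opposite signs, and the medians of the Plekhg5 term were -0.0615 for the disease-associated microglia genes and 0.0787 for the proliferation genes. The interferon-stimulated genes had a median of the Plekhg5 term of -0.28 with and 0.0387 without that library.

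Within these lists, Ch25h, the enzyme that makes 25-hydroxycholesterol, was below 0 on both backgrounds. It had 3.45, 3.62 and 0.796 CPM in Plekhg5+/+, 0.731, 0.633 and 1.23 CPM in Plekhg5-/-, 7.89, 1.49 and 2.85 CPM in Plekhg5+/+ SOD1-G93A and 1.82, 1.49 and 0.932 CPM in Plekhg5-/- SOD1-G93A libraries. The groups overlapped on both backgrounds, and the log2 fold change of -1.57 had an unadjusted p of 0.00418 and an adjusted p of 0.994. The log2 fold change of Ch25h was -1.15 when the first Plekhg5+/+ SOD1-G93A library was left out, and with SOD1-G93A alone -0.63. Of 33 reactive astrocyte genes, 4 were lower at an unadjusted p under 0.05, compared with 1.85% of all genes. Among them, Cd14, the lipopolysaccharide co-receptor, had -0.45 without and -0.91 with SOD1-G93A, Osmr, the oncostatin M receptor, -0.77 and -0.69, and Hspb1, a small heat shock protein, -0.42 and -0.54, whereas Tgm1, a transglutaminase, had 0.97 and -2.68. Without that library 3 genes of the list were lower at this p, its median moved from -0.29 to -0.0584, and the log2 fold changes with SOD1-G93A were -0.60 for Cd14, -0.06 for Osmr, -0.22 for Hspb1 and -1.34 for Tgm1.

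Lists of neurons were above 0 by small amounts. The 45 genes of synaptic vesicles and release machinery had a median of 0.08 with 41 above 0, and 5 were higher and 0 lower at an unadjusted p under 0.05, compared with 1.82% of all genes that were higher at this p. Syn2, which tethers vesicles in the reserve pool, had 263 to 282.3 CPM in Plekhg5+/+ and 282.8 to 296 CPM in Plekhg5-/- libraries, without overlap (log2 fold change 0.08, adjusted p = 0.994). The median was 0.0028 without and 0.16 with SOD1-G93A. Without the first Plekhg5+/+ SOD1-G93A library 1 gene of the list was higher at this p.

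Of 41 receptors for glutamate, GABA and glycine, 35 were above 0 (median 0.06), among them Gria1, an AMPA receptor subunit, with 169 to 178 CPM against 185 to 193 CPM without and 176 to 188 CPM against 192 to 203 CPM with SOD1-G93A. Gria1 was separate on each background (log2 fold change 0.12 on both, unadjusted p = 0.00521, adjusted p = 0.994). Of the receptor genes, 4 were higher at an unadjusted p under 0.05, compared with 1.82% of all genes. When the first Plekhg5+/+ SOD1-G93A library was left out, 2 receptor genes were. The receptor median was 0.0067 without and 0.125 with SOD1-G93A, and 24 of the 41 genes had the same sign on both. The 20 cholinergic motoneuron genes had a median of 0.10, with -0.01 without and 0.21 with SOD1-G93A. Anxa4, a calcium-dependent membrane protein of this list, had a log2 fold change of 0.37 (unadjusted p = 0.00832), and Prph, the intermediate filament peripherin, of 0.17 (unadjusted p = 0.0359). The list median ranged from 0.0427 without the first to 0.148 without the second Plekhg5-/- SOD1-G93A library.

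Lists of vessels and meninges were above 0 over both backgrounds, at medians of 0.14 for 30 endothelial genes, 0.16 for 20 pericyte and smooth muscle genes and 0.22 for 26 meningeal fibroblast and matrix genes. Of the endothelial genes, Emcn, Kdr, Abcb1a and Sox7 were higher at an unadjusted p under 0.05, compared with 1.82% of all genes. When the first Plekhg5+/+ SOD1-G93A library was left out, 3 endothelial genes were. Kdr, the main VEGF receptor, had 9.16, 10.6 and 11.9 CPM in Plekhg5+/+, 9.27, 11.7 and 20.4 CPM in Plekhg5-/-, 11.6, 11.7 and 9.24 CPM in Plekhg5+/+ SOD1-G93A and 20.9, 16.3 and 13.8 CPM in Plekhg5-/- SOD1-G93A libraries (log2 fold change 0.52, adjusted p = 0.994). The groups overlapped without the transgene. The medians were -0.11 without and 0.40 with SOD1-G93A for endothelial, and -0.05 and 0.56 for meningeal genes. Without the transgene 4 endothelial genes were lower at an unadjusted p under 0.05, compared with 5.32% of all genes in either direction. With single libraries left out, the endothelial median of the Plekhg5 term ranged from 0.0571 (without the first Plekhg5-/- SOD1-G93A library) to 0.252 (without the first Plekhg5-/- library). The meningeal median ranged from 0.119 (without the second Plekhg5-/- SOD1-G93A library) to 0.354 (without the first Plekhg5-/- library). The 15 Schwann cell genes had medians of -0.32 without and 0.69 with SOD1-G93A. This list includes Mbp and Sox10, which are also in the lists of oligodendrocytes and their progenitors. Its median of the Plekhg5 term ranged from -0.0492 (without the first Plekhg5+/+ SOD1-G93A library) to 0.33 (without the first Plekhg5-/- library). Whether attached roots contributed to these values, and the part of Schwann cells in the result, was not tested.

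The 38 genes of sterol and fatty acid synthesis had a median of 0.03, and 27 had the same sign on both backgrounds. Higher at an unadjusted p under 0.05 were Stard4, which carries cholesterol between membranes (0.18 without and 0.16 with SOD1-G93A), Lss and Acly, and none was called. Over all genes, 1.82% were higher at this p. Without the first Plekhg5+/+ SOD1-G93A library 0 genes of the list had such a p. The 51 cytosolic ribosomal protein genes were all below 0 for the Plekhg5 term, at a median of -0.05, with 0 genes at an unadjusted p under 0.05 and medians of 0.08 without and -0.19 with SOD1-G93A. The 30 Hox genes, which mark the level of the cord, had a median of 0.0020.

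**Figure D5:**
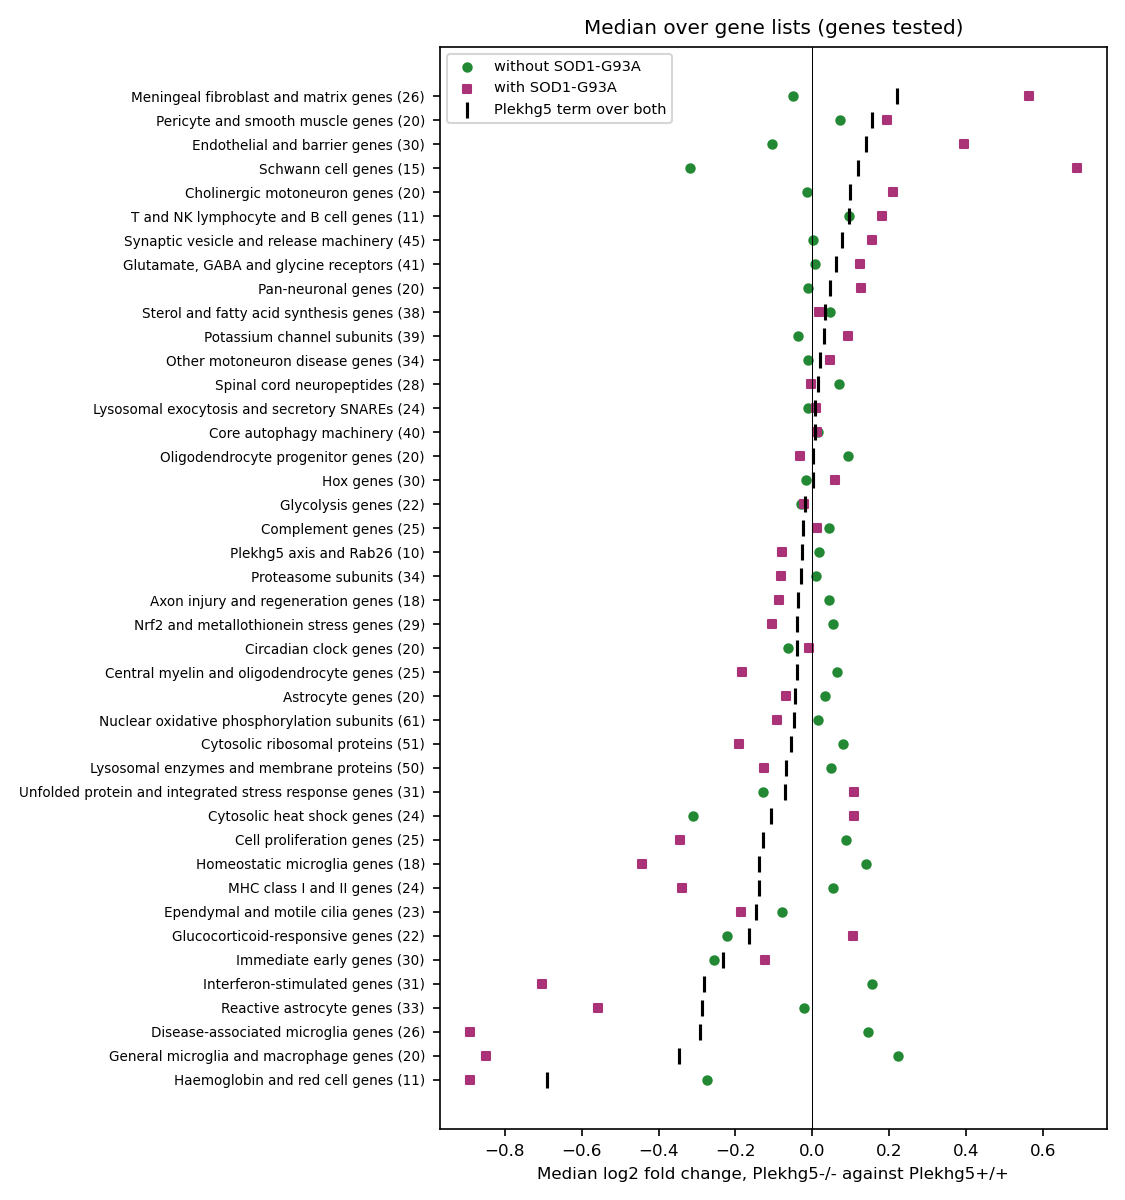
Median log2 fold change of Plekhg5-/- against Plekhg5+/+ (horizontal axis) for the gene lists reported (vertical axis, with the number of genes tested), without SOD1-G93A as green circles, with SOD1-G93A as purple squares, and for the Plekhg5 term over both as black ticks. General microglia and macrophage genes lie at 0.22 and -0.85, whereas haemoglobin genes lie at -0.27 and -0.89 and immediate early genes at -0.26 and -0.12.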

How the data were processed

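Poly(A) RNA of 12 spinal cords was sequenced with a stranded kit, in single reads of 75 bases. The authors trimmed reads with Cutadapt (version 2.4), mapped them with STAR (version 2.7.2b) to GRCm38.p6 and human SOD1 cDNA, and assigned reads to RefSeq exons by strand with featureCounts (version 1.6.4, per the submitters' processing notes), dividing reads with several matches or genes. The values deposited by the authors are therefore estimated counts per gene, made from these fractions and neither normalized nor filtered. They were rounded here for the tests. Total counts per library limit the precision of rare transcripts, and SDs cover the spread between mice.

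Groups followed the sample labels, and columns were matched by genotype and replicate number. In R (4.3.3), edgeR (4.0.16) kept 20155 of 45906 genes (filterByExpr), used TMM normalization and a robust quasi-likelihood fit with terms for SOD1-G93A and Plekhg5. The effect on each background and the interaction came from a fit of the 4 genotypes. P-values were adjusted by Benjamini-Hochberg over all genes tested, with a threshold of 0.05. Single levels were tested with two-sided exact permutation within backgrounds. Gene lists were described by counts and medians, without a test. Alternatives were DESeq2 (1.42.0), limma voom (3.58.1), other scaling and filters, a replicate block, a covariate for Y-linked transcripts (present when 4 genes held over 1000 counts) and each library left out. Copies were searched with blastn (2.17.0) in GENCODE M21 transcripts. Plots were made with matplotlib (3.10.9). The fit was tested on simulated data.

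Named are the targeted genes, all called genes, up to 4 members of a described list with the smallest p-values, and the 15 uncalled genes with separate groups and the smallest p-values. Other genes, the Eno1 and Vamp3 copies included, were chosen after their values were seen. The genes and lists were chosen with earlier results of these data known. Lists not described in the text appear in the plot of list medians, and 1 list is not reported here.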

Additional observations from a re-analysis of the deposited data

Results flagged for a closer look

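Among the named genes, 5 had a library that lay apart from the other 5 of its Plekhg5 group by Dixon's test at the 95% level, out of 56 groups of 6 tested, of which chance flags about 1 in 20. In all 5 it was the first Plekhg5-/- library, at 299 CPM for Eno1 against 243 to 262 CPM in the others, 205 CPM for Eno1b against 168 to 180 CPM, 4.92 CPM for Gm8483 against 3.92 to 4.17 CPM, 55.9 CPM for Vamp3 against 42.8 to 45.9 CPM, and 186 CPM for mouse Sod1 against 147 to 156 CPM. Eno1, Eno1b and Gm8483 were also called without this library.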

How the results depend on the processing

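With single libraries omitted, 9 to 11 genes were called for the Plekhg5 term. DESeq2 called 17 genes with and 17 without a prior, 9 of them those of edgeR, and 4 genes were called when genes within 10 Mb were left out or, as chosen after the data were seen, when the Eno1 and Vamp3 copies were summed (by construction). Besides those of edgeR, DESeq2 called Angptl7, Faap20, Gm21075, Gm5859, LOC330143, Megf6, Plekhm2 and Ttc34, with and without a prior. Limma voom called 11 genes, those of edgeR with Faap20 and Plekhm2. For the effects on single backgrounds DESeq2 called 36 genes without and 72 with SOD1-G93A and 98 interactions, against 6, 7 and 0 with edgeR, and with only the 2 transgenic genotypes in the fit 11 genes were called. Without single libraries these counts ranged from 5 to 59, 4 to 8 and 0 to 40. The highest of the first and last, 59 and 40, came without the third Plekhg5+/+ library, and the lowest with SOD1-G93A, 4, without the second Plekhg5+/+ SOD1-G93A or the second Plekhg5-/- SOD1-G93A library. The cause was not tested. No called gene changed direction under any of these settings, and those lost were Tnfrsf25 and LOC115489042, which were not tested when 10 counts in every library were required, and those removed or summed. Of 602 list medians recomputed, 600 stayed within 1 SD of the spread between mice, and the others, of Hox genes (-0.0181 to 0.07 without single libraries) and oligodendrocyte progenitor genes (-0.0106 to 0.0645), exceeded it. This SD includes the first Plekhg5+/+ SOD1-G93A library, so it cannot show how far a list depends on that library. Without it, medians counted as within the SD moved from -0.35 to -0.0719 for general microglia and macrophage genes. They moved from -0.28 to 0.0387 for interferon-stimulated and from -0.13 to 0.0787 for cell proliferation genes. Mice with the same replicate number did not deviate together in every pair (correlations from -0.163 to 0.318, 6 of 12 libraries closest to a library of their own number), and with a replicate block 9 genes were called for the Plekhg5 term, 8 and 8 on the single backgrounds and 0 for the interaction. At this depth genes with few counts, such as Tnfrsf25, are imprecise.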

Other observations

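A stretch of chromosome 4 far from Plekhg5, at 41 to 43 Mb, held many of the remaining small p-values on that chromosome. Of 54 genes tested there, 19 had an unadjusted p under 0.05, compared with 3.67% of all genes. All 19 were higher in Plekhg5-/- mice, with log2 fold changes from 0.18 to 1.16. The median over the 54 genes was 0.148, and 0 were called with edgeR over all 12 libraries. Gm5859 and Gm21075 were called with DESeq2, and Gm5859 with edgeR when the third Plekhg5+/+ library was left out. The 19 genes include Gm5859 (1.16, adjusted p = 0.413 with edgeR), Gm21075 (1.00, adjusted p = 0.547 with edgeR), the chemokine genes Ccl21a and Ccl21b, which guide lymphocytes to lymph nodes, and several Fam205a genes. All 19 had counts that were not whole in at least 11 libraries, so they may share reads and may not be separate observations. The source of the fractions was not tested. These 19 genes were chosen after their values were seen.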
